A study of Mus musculus with 3 samples.

Results

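The 9 genes described here encode the transporters and kinases that set the chloride concentration of neurons. They are the cation-chloride cotransporter genes Slc12a2, Slc12a5, Slc12a4 and Slc12a7, the WNK kinase genes Wnk1, Wnk2 and Wnk3, and the genes of the kinases downstream of WNK, Stk39 and Oxsr1. They were chosen by symbol, and all 9 were found among the 27494 genes of the deposited table. The table covers 3 poly-A RNA libraries of a single group: wild-type cortical neurons of embryonic day 16 Swiss-Webster mice, an outbred stock, dissociated, cultured in neurobasal medium with B27 and labelled as controls with no treatment. The protocol text they carry also describes a short exposure to etoposide, a topoisomerase II poison, without naming samples, so that the cultures were untreated rests on the labels. The group has no control or treated counterpart, so the comparisons are between genes within a library. Values are TPM, which divides reads by transcript length, of the row of each gene's longest protein-coding transcript. They are given for libraries 1, 2 and 3 and as mean ± SD (n = 3). Reads recovered from the table, summed over the fullest row of each gene, came to 29.4 to 33.8 M per library. The labels do not state whether separate cultures were used, so an SD here reflects library-to-library spread and may be technical. The p-values permute signs over the same libraries, so they carry the same limit and do not measure that spread.

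Chloride enters neurons through NKCC1, the sodium-potassium-chloride cotransporter encoded by Slc12a2, and leaves through the potassium-chloride cotransporters, above all KCC2, encoded by Slc12a5. The balance of import and export decides whether GABA-A receptors hyperpolarise or depolarise a neuron, and in rodent cortex it shifts towards export as neurons mature. WNK kinases sense chloride and cell volume. They activate SPAK, encoded by Stk39, and OSR1, encoded by Oxsr1, whose phosphorylation of the cotransporters stimulates NKCC1 and inhibits the KCCs.

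Slc12a5 starts at a pair of first exons 7181 bases apart on chromosome 2. The upstream exon begins the isoform KCC2a and the downstream exon KCC2b, which is the main form in the adult brain. The windows around the RefSeq starts of Slc12a5 and of Slc12a7 are shown because these genes were the highest and the lowest of the cotransporter members. Each window runs from 250 bases before to 50 bases after a start, 5′ to 3′ on the plus strand of build GRCm38.p6, and capitals mark the E-box CACGTG, the motif read by USF1 and USF2.
Slc12a5 upstream start, chr2:164960596-164960895: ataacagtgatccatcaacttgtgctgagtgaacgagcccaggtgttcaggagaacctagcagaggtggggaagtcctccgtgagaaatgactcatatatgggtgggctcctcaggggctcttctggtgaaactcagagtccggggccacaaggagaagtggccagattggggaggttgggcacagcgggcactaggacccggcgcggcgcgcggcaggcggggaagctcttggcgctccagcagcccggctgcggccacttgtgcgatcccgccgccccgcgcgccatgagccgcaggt
Slc12a5 downstream start, chr2:164967738-164968037: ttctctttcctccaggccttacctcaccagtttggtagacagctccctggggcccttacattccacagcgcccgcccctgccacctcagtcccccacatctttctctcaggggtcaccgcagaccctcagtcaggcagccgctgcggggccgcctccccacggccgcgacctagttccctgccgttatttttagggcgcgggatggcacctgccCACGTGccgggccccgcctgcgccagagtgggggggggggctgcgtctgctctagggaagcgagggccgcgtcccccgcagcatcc
Slc12a7 start, chr13:73763410-73763709: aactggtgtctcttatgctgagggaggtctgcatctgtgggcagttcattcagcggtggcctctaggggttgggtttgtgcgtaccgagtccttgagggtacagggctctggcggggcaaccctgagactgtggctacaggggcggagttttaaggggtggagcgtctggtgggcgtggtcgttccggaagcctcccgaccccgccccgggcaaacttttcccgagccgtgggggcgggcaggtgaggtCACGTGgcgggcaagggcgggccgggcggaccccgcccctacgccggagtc
The E-box began at position -36 from the downstream Slc12a5 start and at position -1 from the Slc12a7 start, and was not in the upstream Slc12a5 window. CACGTG is its own reverse complement and was present in 7.15% of 32851 RefSeq windows of this length. RefSeq windows were found for 8 of the 9 genes, 10 windows in all, and among these only the downstream window of Slc12a5 and the pair of overlapping Slc12a7 windows held CACGTG. The GC box GGGCGG, searched on both strands and present in 35.7% of all windows, occurred 6 times in the Slc12a4 window, 5 times in that of Wnk1, 6 times in each Slc12a7 window, 4 times in that of Stk39 and once in that of Oxsr1 and in each Slc12a5 window, but not in those of Wnk2 and Wnk3. Its matches did not overlap an E-box. The TATA box TATAAA, searched on both strands and present in 13.6% of all windows, was found only in the Wnk3 window, at position -33. Of EGR sites only the exact forms GCGTGGGCG and GCGGGGGCG were searched, on both strands. They were present in 0.612% and 2.91% of all windows and in none of the 10 windows. Other forms and sites outside the windows were not searched.

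The exporter gene Slc12a5 was the highest of the 9 genes. It stood at 27.7, 29.7 and 23.7 TPM in libraries 1, 2 and 3 (27.0 ± 3.07), or 8566, 7729 and 6513 reads, and ranked at 1825 of 18221 protein-coding genes. The importer gene Slc12a2 stood at 7.43, 9.03 and 8.41 TPM (8.29 ± 0.807), or 2482, 2544 and 2506 reads. Library 3 was the lowest for Slc12a5 and library 1 the lowest for Slc12a2, and the values of the genes did not overlap. Their difference in log2(TPM + 1) was 1.59 ± 0.19. The TPM of Slc12a5 was between 2.81 and 3.74 times that of Slc12a2. Slc12a2 (chromosome 18, 57878678 to 57946821, plus strand, mm10) is listed with a single transcript row, so no choice of row enters its level.

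Slc12a4 encodes KCC1, the potassium-chloride cotransporter that most tissues use for volume regulation. It lies on chromosome 8 (105943590 to 105966115, minus strand, mm10) and stood at 3.45, 3.38 and 3.18 TPM (3.34 ± 0.140), or 678, 560 and 557 reads. Slc12a7 encodes KCC4, a related transporter of epithelia. It lies on chromosome 13 (73763697 to 73816743, plus strand, mm10) and stood at 0.426, 0.595 and 0.533 TPM (0.518 ± 0.0856), or 112, 132 and 125 reads. It was the only one of the 9 genes below a mean of 1 TPM, the limit used for detection. Exact Poisson 95% intervals of its reads were 92.2 to 135, 110 to 157 and 104 to 149, so it was present at a low level in each library. Intervals of read counts cover counting error only.

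The cotransporter genes were ordered in the same way in each library. The difference in log2(TPM + 1) within a library was 2.69 ± 0.12 for Slc12a5 minus Slc12a4 and 4.20 ± 0.17 for Slc12a5 minus Slc12a7, above 0 in 3 of 3 libraries. It was 1.10 ± 0.15 for Slc12a2 minus Slc12a4 and 2.61 ± 0.04 for Slc12a2 minus Slc12a7, also above 0 in 3 of 3 libraries. Slc12a7 minus Slc12a4 gave -1.52 ± 0.11, above 0 in 0 of 3 libraries. The ranges of none of these pairs overlapped. For each of the 6 cotransporter pairs an exact permutation of signs (two-sided) gave p = 0.25, the smallest value that 3 libraries allow, and 0.278 after Benjamini-Hochberg adjustment over the 10 pairs compared.

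**Figure D1:**
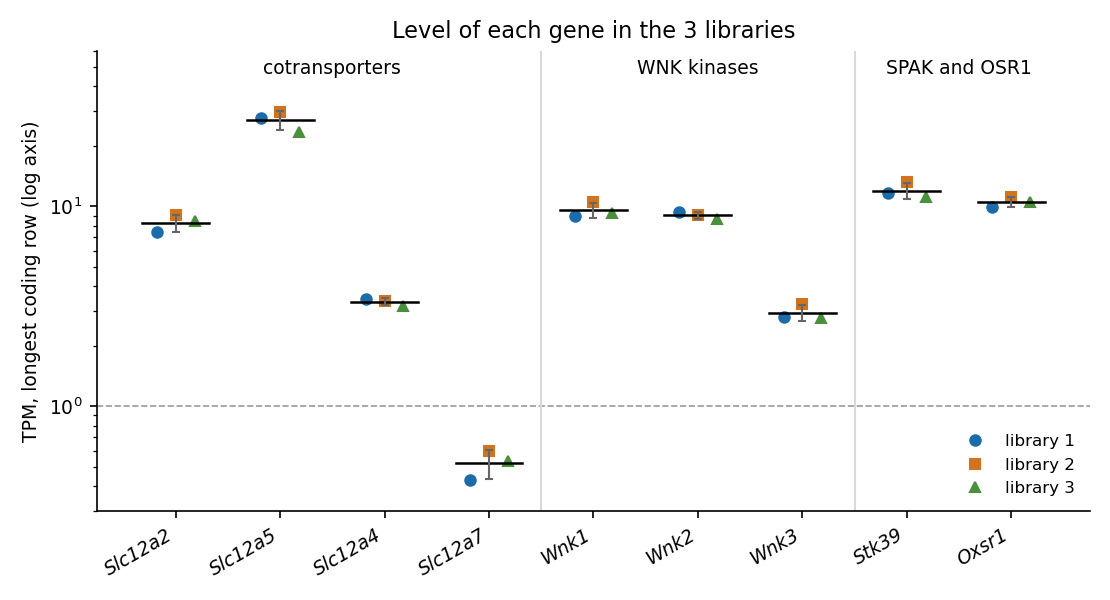
TPM of each gene's longest coding transcript row (log axis) in libraries 1, 2 and 3, with black lines for the mean and gray bars for the SD (n = 3). Slc12a5 lies above all others at 27.0 TPM, and Slc12a7 alone lies below the dashed line at 1 TPM.

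Wnk1 and Wnk2 stood at nearly the same level, and Wnk3 below them. Wnk1, the broadly expressed founding member (chromosome 6, 119923969 to 120038672, minus strand, mm10), stood at 8.98, 10.5 and 9.27 TPM (9.59 ± 0.810), or 5215, 5146 and 4800 reads on a row of 11330 bases. Wnk2, which is enriched in brain (chromosome 13, 49036303 to 49148014, minus strand, mm10), stood at 9.36, 9.10 and 8.61 TPM (9.02 ± 0.380), or 3308, 2714 and 2713 reads. Their ranges overlapped, and Wnk1 minus Wnk2 was 0.08 ± 0.12 in log2(TPM + 1), positive in 2 of 3 libraries (exact permutation p = 0.5, adjusted 0.5). Neither can be called the higher, which does not show that they were equal.

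Wnk3, which acts on cotransporters in neurons and lies on chromosome X (151198078 to 151320152, plus strand, mm10), stood at 2.80, 3.26 and 2.78 TPM (2.95 ± 0.270), or 1227, 1204 and 1086 reads. All its values lay under those of Wnk1 and Wnk2. Wnk1 minus Wnk3 was 1.42 ± 0.03 and Wnk2 minus Wnk3 1.35 ± 0.10 in log2(TPM + 1), both positive in 3 of 3 libraries (exact permutation p = 0.25, adjusted 0.278, for both). The TPM of Wnk1 was between 3.21 and 3.34 times that of Wnk3.

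Stk39 (chromosome 2, 68210445 to 68472268, minus strand, mm10) stood at 11.6, 13.2 and 11.1 TPM (11.98 ± 1.10), or 2109, 2020 and 1792 reads. Oxsr1 (chromosome 9, 119238432 to 119322427, minus strand, mm10) stood at 9.90, 11.1 and 10.6 TPM (10.5 ± 0.609), or 2358, 2233 and 2243 reads. Their ranges overlapped, although Stk39 was the higher within each library. Stk39 minus Oxsr1 was 0.17 ± 0.09 in log2(TPM + 1), positive in 3 of 3 libraries (exact permutation p = 0.25, adjusted 0.278). The sign turned with each gene's highest transcript row, which gave -0.13 ± 0.16, so the order of this pair is not settled by these data. In brain SPAK and OSR1 overlap in their substrates.

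In order of mean level the genes were Slc12a5, Stk39, Oxsr1, Wnk1, Wnk2, Slc12a2, Slc12a4, Wnk3 and Slc12a7. The steps below Slc12a5, below Slc12a2 and above Slc12a7 were the only ones between neighbours with ranges that did not overlap. They measured 1.11 ± 0.08, 1.10 ± 0.15 and 1.38 ± 0.07 on the log2 scale, each in 3 of 3 libraries. From Stk39 to Slc12a2 the genes formed a run between 8.29 and 11.98 TPM with overlapping neighbours. Slc12a4 and Wnk3 differed by 0.14 ± 0.09, and their ranges overlapped as well.

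Of the 9 genes 8 had a mean of at least 1 TPM, beside 61.5% of 18221 protein-coding genes. At 10 TPM or more stood Slc12a5, Stk39 and Oxsr1, 3 of 9 genes, beside 26.4% of protein-coding genes. The median of the 9 was 9.02 TPM, beside 2.84 TPM over all 18221 protein-coding genes and 8.11 TPM over the 11211 detected ones. Their coefficients of variation between libraries ran from 4.19% for Slc12a4 to 16.5% for Slc12a7, beside a median of 7.89% over detected genes. With each gene's highest transcript row, 8 of 9 genes had at least 1 TPM beside 63% of protein-coding genes, and 5 of 9 at least 10 TPM beside 31%.

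**Figure D2:**
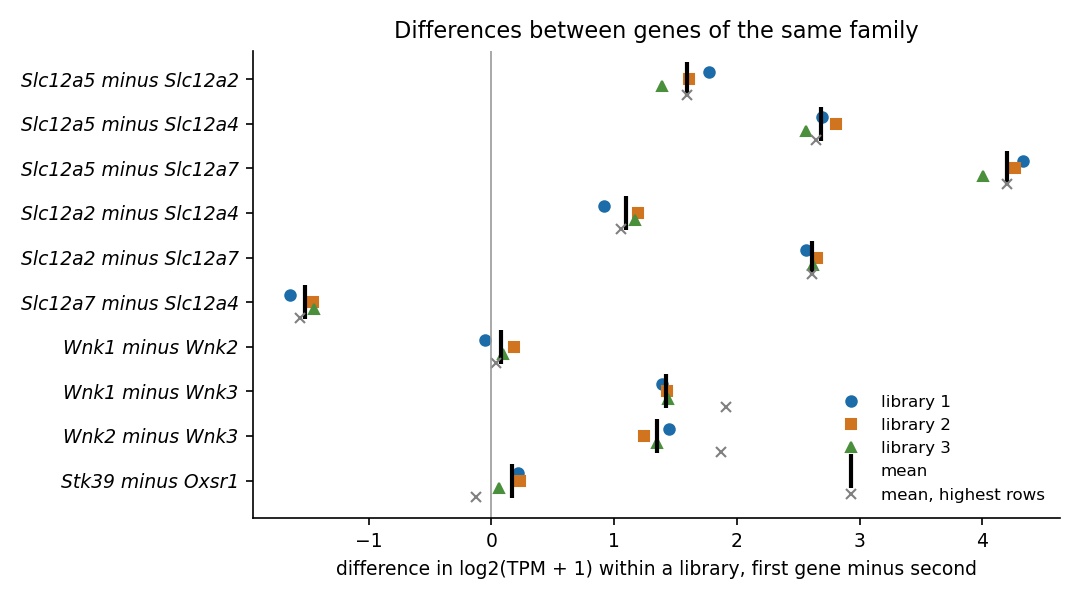
Difference in log2(TPM + 1) within each library for the 10 pairs of related genes, with the mean (black bar) and the mean on the highest transcript rows (gray cross). The points of Wnk1 minus Wnk2 lie on both sides of 0, and the cross of Stk39 minus Oxsr1 lies below 0 at -0.13.

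The transcript rows of Slc12a5 differed by start site. The row Slc12a5-201 (chromosome 2, 164967983 to 164999727, plus strand, mm10) begins at the downstream exon, runs to the end of the gene and is its only protein-coding row. The row Slc12a5-203 lies wholly before that start, at 164960802 to 164962752, and holds the upstream first exon of 202 bases with further short exons. It had 15, 20 and 47 reads over its 422 bases in libraries 1, 2 and 3, against 8566, 7729 and 6513 reads over 6024 bases on Slc12a5-201. Per base this came to 2.50%, 3.69% and 10.3% of the downstream row, with exact Poisson 95% intervals of 1.40 to 4.12, 2.26 to 5.70 and 7.57 to 13.7%. Library 3 held the most reads on the upstream row and the fewest on the downstream row. It also had the lowest summed level of 8 neuronal markers, 1820 TPM. The sums of 8 astrocyte markers, 517 TPM, and of 8 oligodendrocyte lineage markers, 84.7 TPM, were the highest in library 3. The part of these cell types in the difference between libraries was not tested.

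The mean ratio of the upstream to the downstream row was 5.50 ± 4.20%, and 3.10% without library 3. Slc12a5-201 runs to the end of the gene, so its reads on shared exons can include those of KCC2a. The ratio of the rows is therefore not a ratio of KCC2a to KCC2b. If KCC2a messenger RNA uses the upstream first exon but not the others of Slc12a5-203, the ratio is understated. With all reads placed in that exon it would be 5.22, 7.72 and 21.5%. The row Slc12a5-202, which starts in the upstream exon and ends in exons shared with Slc12a5-201, stood at 21.03, 26.5 and 29.1 TPM. It was the highest in library 3 too, but its reads on the shared exons cannot be told apart from those of KCC2b.

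Wnk1 is listed with 23 rows, of which 4 are long coding models between 9.42 and 10.6 TPM. The long rows Wnk1-203 and Wnk1-202 differ in internal exons. Wnk1-203 holds an exon of 1236 bases (chromosome 6, 119962397 to 119963632, minus strand, mm10) between exons 8 and 9 of the 28 exons of Wnk1-202. This is the position of HSN2, an exon of the nervous system in which mutations cause a hereditary sensory neuropathy in humans. The row Wnk1-218 covers it with little else and stood at 1.56, 1.46 and 1.37 TPM, or 114, 90 and 89 reads. That was 16.2, 13.0 and 13.7% of Wnk1-202, a mean of 14.3 ± 1.69%, and the lowest of all Wnk1 rows.

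Where a row holds all bases of a shorter one, the difference of their read counts was taken for the added bases. Wnk1-203 holds 1320 bases that Wnk1-204 lacks, the exon of 1236 bases among them. Wnk1-203 had 111, 84 and 88 reads more than Wnk1-204, or 84.1, 63.6 and 66.7 per added kb, against 510, 506 and 471 reads per kb on Wnk1-204 itself. Wnk1-202 holds 565 bases that Wnk1-204 lacks, chiefly an exon of 462 bases between exons 10 and 12. The difference was 191, 129 and 172 reads per added kb, more than for the 1320 bases in each library. How reads that cross into a shared exon were counted is not given in the sources used here. If they count for both rows, these values are too low for the added exons.

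The 10 coding rows of Wnk2 stood between 7.21 and 9.96 TPM and the 3 of Wnk3 between 2.82 and 2.95 TPM. Wnk3-205 differs from Wnk3-206 by a block of 141 bases at the end of an exon, which added 2, 0 and 0 reads. The highest row of Wnk1 was Wnk1-217, a processed transcript of 516 bases, at 14.9 ± 2.95 TPM, and that of Wnk2 an NMD model, Wnk2-208, at 14.3 ± 1.15 TPM. For Oxsr1 the NMD model Oxsr1-204 reached 16.1 ± 1.89 TPM, and for Stk39 the processed transcript Stk39-207 reached 14.6 ± 1.17 TPM. The highest row of Wnk3 was Wnk3-203 at 3.19 ± 0.468 TPM and that of Slc12a4 was Slc12a4-204 at 3.48 ± 0.427 TPM. For Slc12a5, Slc12a2 and Slc12a7 the highest row was the row already given.

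**Figure D3:**
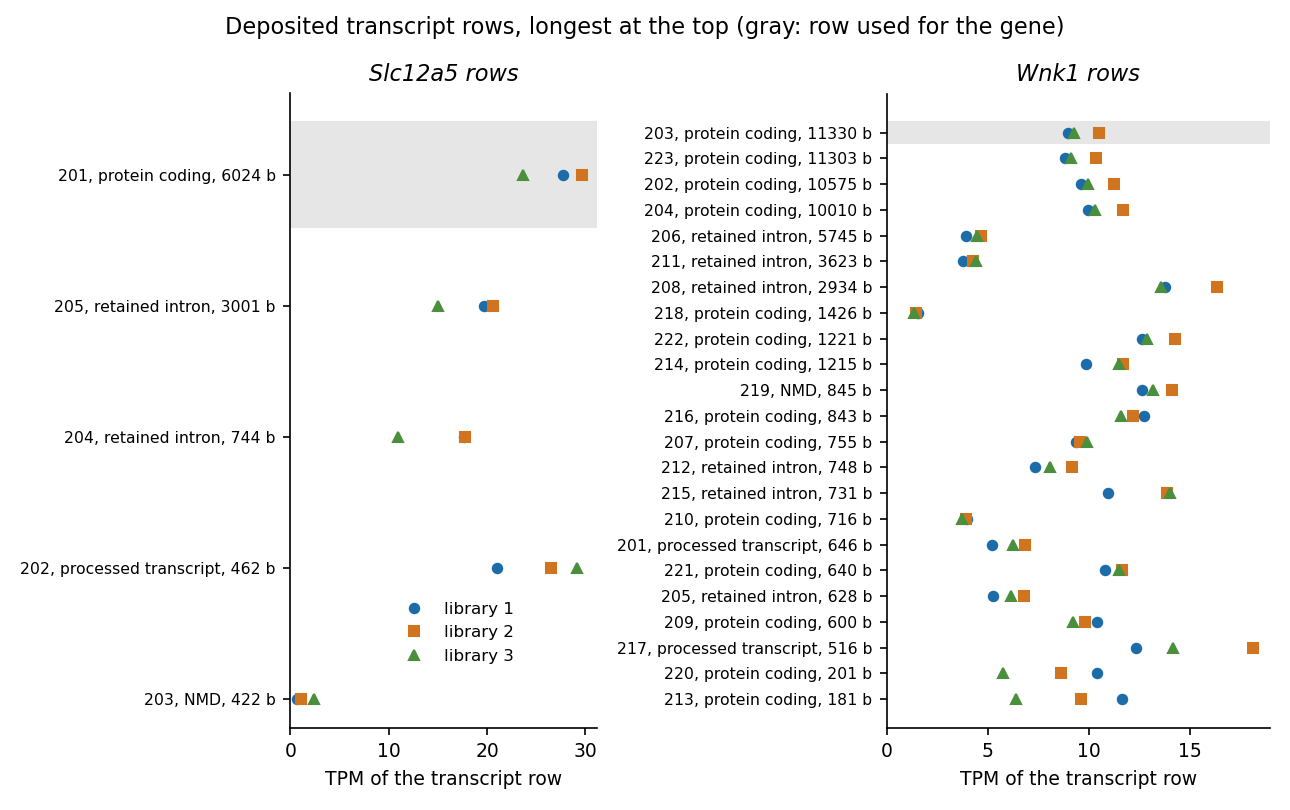
TPM of each deposited transcript row of Slc12a5 and Wnk1 in libraries 1, 2 and 3, longest row at the top, with type and length in bases. Slc12a5-203, upstream of the KCC2b start, lies between 0.693 and 2.44 TPM, and Wnk1-218, over the exon of 1236 bases, between 1.37 and 1.56 TPM.

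Among the other SLC12 genes, Slc12a9, a family member without a settled transport function, stood at 4.38 ± 0.221 TPM and Slc12a8 at 0.311 ± 0.0236 TPM. The kidney cotransporter genes Slc12a3 and Slc12a1 stood at 0.0323 ± 0.00503 and 0.0160 ± 0.0122 TPM. Of these genes Slc12a9 alone was detected.

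Of 13 regulators of the WNK pathway 12 were detected, beside 61.5% of all protein-coding genes. The same share applies to the counts of the other lists. Wnk4, a kinase known best from the distal nephron, was the exception at 0.0427, 0.0449 and 0.0904 TPM, under Wnk3 in each library. The phosphatase catalytic genes Ppp1ca and Ppp1cb stood at 104 ± 9.11 and 61.0 ± 4.42 TPM; type 1 phosphatases dephosphorylate cotransporters. Cab39, whose product MO25 activates SPAK and OSR1, stood at 45.9 ± 2.04 TPM, above both of these kinase genes in each library. Rbx1, a ring subunit of the cullin ligases that degrade WNKs, stood at 42.8 ± 3.10 TPM.

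Of 15 partners and transcriptional regulators of KCC2, 13 were detected. Ckb, the brain creatine kinase, stood at 141 ± 2.29 TPM, Pacsin1, an endocytic adaptor, at 47.5 ± 3.39 TPM and the BDNF receptor gene Ntrk2 at 43.9 ± 4.38 TPM. The length computed for the Pacsin1 row, which includes a shift of its ends between annotation releases, was implausibly long for a spliced transcript. The choice of that row is therefore uncertain, and the Pacsin1 row with the longest coding sequence stood at 35.4 TPM. Epb41l1, which encodes the cytoskeletal protein 4.1N, stood at 41.3 ± 3.13 TPM. The lowest was Prkcd, of a protein kinase C isoform, at 0.716 ± 0.0797 TPM. The E-box factor genes Usf1 and Usf2 stood at 16.9 ± 1.27 and 17.5 ± 1.90 TPM. With each gene's highest row they stood at 21.3 ± 1.07 and 53.3 ± 5.38 TPM. Egr4, of a zinc finger activator of Slc12a5, stood at 2.80 ± 0.558 TPM, and the neuronal gene repressor gene Rest at 0.732 ± 0.0385 TPM. These 4 were picked from the list after their values were seen, for their known role at Slc12a5.

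Other routes for chloride and bicarbonate were also measured. Of 19 such genes 14 were detected, with the endosomal exchanger genes Clcn4 at 54.5 ± 3.64 TPM and Clcn3 at 49.8 ± 3.06 TPM as the highest. The bicarbonate transporter genes Slc4a10 and Slc4a4 followed at 29.3 ± 2.51 and 20.7 ± 2.56 TPM, and Ano1, of a calcium-activated chloride channel, was the lowest at 0.00851, 0 and 0 TPM. Of the 5 subunits of the volume-regulated anion channel 4 were detected. Lrrc8b and Lrrc8d stood at 24.4 ± 2.82 and 16.6 ± 0.320 TPM, the obligatory subunit gene Lrrc8a at 7.34 ± 0.310 TPM and Lrrc8c at 2.95 ± 0.350 TPM. Lrrc8e was the lowest at 0.00503, 0 and 0.0282 TPM.

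The sodium pump maintains the gradients on which all these cotransporters run. The beta subunit genes Atp1b1 and Atp1b2 stood at 454 ± 32.4 and 83.4 ± 2.49 TPM, above Slc12a5 in each library. Atp1a4, of sperm, stood at 0.0104 ± 0.00740 TPM.

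**Figure D4:**
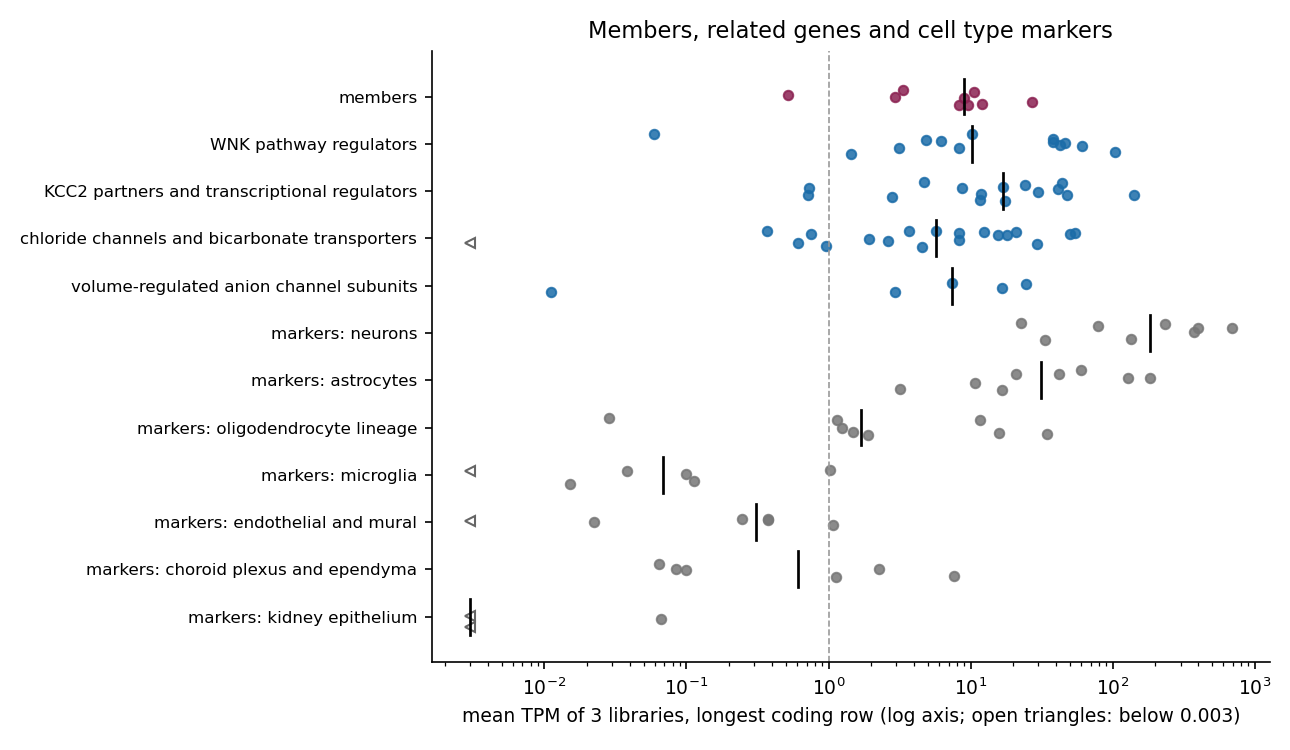
Mean TPM (n = 3, log axis) of the 9 genes, of the genes of 4 related lists and of the cell type markers, with a black bar for the list median and a dashed line at 1 TPM. The 9 genes have a median of 9.02 TPM and the WNK pathway regulators of 10.3 TPM. Open triangles stand for genes below the left end of the scale.

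The cultures held neurons with other cells. All 8 neuronal markers had a mean of 22.6 TPM or more, and their sum ran from 1820 to 2053 TPM over the libraries. All 8 astrocyte markers were detected, with a sum of 425 to 517 TPM, and 7 of 8 oligodendrocyte lineage markers, with a sum of 50.5 to 84.7 TPM. Of the markers of microglia, of endothelial and mural cells and of choroid plexus and ependyma, 1 of 6, 1 of 6 and 3 of 6 were detected. Their sums were 0.955 to 1.77, 1.87 to 2.25 and 8.53 to 13.6 TPM, and Tmem119 and Cldn5 were listed at 0. None of the 3 kidney markers analysed here was detected, with Aqp2 listed at 0. Glia are known to express several of these genes too. The levels are those of the mixed culture, and how much each cell type gave was not tested. Fewer cells of a type and less RNA per cell cannot be told apart in such libraries.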

How the data were processed

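Poly-A RNA of 3 libraries of 1 group was sequenced with a strand-specific kit, per the labels' protocols. The deposited table holds TPM per transcript and library, computed by the authors, and each library sums to 1000000. Per the submitters' processing notes the tools were Trimmomatic, TopHat, Bowtie and HTSeq and the build mm10, with no versions or roles given. The table's name gives GENCODE release M4. How reads shared by transcripts were handled is not given in the sources used here.

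Of 84660 rows 83017 matched a GENCODE M21 transcript by identifier, and 30 of these lay elsewhere and were left out. The gene value is the row of the longest protein-coding transcript. Rows were never summed, since rows of a gene share reads. Lengths were those of M21 plus any shift of the row's ends from M21, which can misstate a spliced length. TPM times length was a whole multiple of 1 number per library, within 0.01, in 100% of the rows with equal models and in all 64 rows of the 9 genes. Reads were computed from this and used for description only. Summed over the fullest row of each gene they came to 33.8, 29.9 and 29.4 M in libraries 1, 2 and 3, with some reads counted for overlapping genes. On 1 kb, 1 TPM stood for 51.3, 43.2 and 45.7 reads. Read counts of library pairs differed with a chi-square of 14.7, 19.9 and 20.5 per degree of freedom, so no libraries were merged. Read recovery was tested on simulated data and returned 100% of 42156 rows per library.

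Differences of log2(TPM + 1), which understate ratios of low genes, were taken within libraries for all pairs in a family and their signs permuted exactly (two-sided), with Benjamini-Hochberg adjustment over the 10 pairs. No 50-base word of the 9 rows occurred in another gene, except 5.90% of those of Slc12a4, shared with the antisense gene Gm16156, and 4.50% of those of Wnk3, shared with A230072E10Rik. Promoter windows are RefSeq's. Named genes are the 9, the other SLC12 genes, Wnk4, and the 4 highest and the lowest of each related list, of which some are not reported here. With 3 libraries of 1 group no genes of like pattern were sought. The genes and lists were chosen with earlier results of these data known. Alternatives were the highest row, the longest coding sequence, a pseudocount of 0.1, other detection limits, scaling to nuclear protein-coding genes, the median and leaving out each library. Python 3.11.15, pandas 2.3.3 and SciPy 1.17.1 were used.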

Additional observations from a re-analysis of the deposited data

How the results depend on the processing

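The differences of the 10 pairs kept their direction with the longest coding sequence, a pseudocount of 0.1, scaling to nuclear protein-coding genes, the median of the libraries and without any of the libraries. With the highest row 1 of them turned, Stk39 minus Oxsr1, to -0.13, and the cause was not tested. No test could pass a threshold of 0.05, since the smallest p is 0.25 with 3 libraries and 0.5 with 1 left out. The count of detected genes was 8 of 9, and between 6 and 9 under the alternatives tried. The level of 4 of the 9 genes moved by more than its SD with the highest row, and all 9 moved with scaling, which multiplies each library by 4.68 to 4.85. The ratio of the upstream to the downstream Slc12a5 row was 11.5% with all reads placed in the first exon, an alternative chosen after seeing the data, as were both row ratios themselves. Depth limits the upstream Slc12a5 row, with 15 reads in library 1, more than any gene value of the 9. No paired analysis was possible because the labels give a single group.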
